A study of Homo sapiens with 2 samples.

Results

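The miR-146 and miR-155 miRNAs were examined in small RNA libraries of A549, an established human lung adenocarcinoma cell line. The 4 mature miRNAs hsa-miR-146a-5p, hsa-miR-146b-5p, hsa-miR-146b-3p and hsa-miR-155-5p were taken by name from the 859 mature miRNAs listed in a table of 5475 small RNA features. Of these 4 names, 3 are listed, and hsa-miR-146b-3p is not. Cells were grown in DMEM with fetal calf serum and then held for 24 h in normoxia (20% oxygen) or in hypoxia (1.2% oxygen), with 1 library per condition. Nothing else distinguished the groups in the labels, and no inflammatory stimulus is named for either. With a single library per condition, a difference between the libraries has no replicate check and no p-value is given. The 95% intervals below cover counting error only, and they treat each read as an independent molecule. Reads amplified by PCR without molecular identifiers are not independent molecules, so the intervals may be too narrow even for counting error.

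miR-146a and miR-146b are paralogous miRNAs from separate loci, and both are known as brakes on innate immune signalling. Transcription of miR-146a is induced by NF-κB, and miR-146a represses the signalling proteins IRAK1 and TRAF6 upstream of NF-κB. The induction by NF-κB is given here for miR-146a only. miR-155 is processed from the transcript of MIR155HG (also called BIC), which is induced in activated lymphocytes and macrophages, where miR-155 represses inhibitors of cytokine signalling such as SOCS1 and INPP5D. A miRNA hairpin yields a 5p and a 3p arm, and one of them, the guide, is usually retained far more than the other.

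The mature sequences are shown because the shared seed, and the few bases that set miR-146a apart from miR-146b, decide how well these counts can be told apart. They come from RefSeq (GRCh38.p14), where all 4 names were matched, and are written 5′ to 3′ with the seed (bases 2 to 8) in capitals.
hsa-miR-146a-5p: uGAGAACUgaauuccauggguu
hsa-miR-146b-5p: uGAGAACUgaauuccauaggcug
hsa-miR-155-5p: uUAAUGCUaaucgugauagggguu
hsa-miR-146b-3p: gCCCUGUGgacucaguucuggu

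miR-146a-5p and miR-146b-5p have the same seed, and their first 17 bases are identical. Counted from 1 at the 5′-end, they differ by 2 substitutions, G18A and U21C (the base of miR-146a first), and miR-146b is longer by 1 base at the 3′-end. The edit distance, which counts substitutions, insertions and deletions, was 3 between them. No other listed miRNA with a RefSeq sequence was closer than a distance of 8 to miR-146a-5p (miR-194-5p) or of 9 to miR-146b-5p (miR-143-3p). A read that ends before base 18 therefore fits both. The sources used here do not say how such reads were assigned, so the separate counts of the pair are uncertain, and the part of shared reads in them was not tested. In RefSeq, 1 further mature miRNA carries this seed, hsa-miR-7153-5p, which is not listed in the table. No other RefSeq mature miRNA has the seed of miR-155-5p, and none of the 686 other listed miRNAs with a RefSeq sequence was closer to it than a distance of 9, which miR-130b-3p and miR-26a-5p both had.

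In hg19, the build named in the submitters' processing notes, the counted interval is chr5:159912378-159912401 for miR-146a-5p, chr10:104196276-104196299 for miR-146b-5p and chr21:26946294-26946318 for miR-155-5p. In each, the mature sequence starts at base 2 of the interval, which thus includes 1 genomic base before the mature 5′-end. In the GENCODE version 29 annotation (GRCh38), the MIR146A hairpin (chr5:160485352-160485450, plus strand) lies within an exon of the lincRNA gene MIR3142HG. The MIR155 hairpin (chr21:25573980-25574044, plus strand) lies within an exon of its host lincRNA gene MIR155HG. The MIR146B hairpin (chr10:102436512-102436584, plus strand) overlaps no other annotated gene, and its nearest neighbours are CUEDC2 at 3850 bases and RPARP-AS1 at 13232 bases. No other feature of the table lies within 10 kb of any of the 3 counted intervals.

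The members made up a small share of both libraries, and nearly all of their counts fell on miR-146b-5p. Mature miRNAs took 4514818 counts in normoxia and 8600160 in hypoxia (70.0% and 65.6% of all counts), and levels are given per 1000000 of these counts (CPM). miR-146b-5p had 542 counts in normoxia, or 120 CPM (interval 110 to 131), and 894 counts in hypoxia, or 104 CPM (97.2 to 111.0). It ranked 135th of the 859 mature miRNAs in normoxia and 145th in hypoxia. It thus lay in the upper part of the list but far below its top, since the most abundant miRNA, miR-21-5p, had 6015 times as many counts in normoxia and 6576 times as many in hypoxia.

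miR-146a-5p had 29 counts in normoxia, or 6.42 CPM (4.30 to 9.22), and 63 counts in hypoxia, or 7.33 CPM (5.63 to 9.37), at ranks 354 and 351. miR-155-5p had 7 counts in normoxia, or 1.55 CPM (0.623 to 3.19), and 26 counts in hypoxia, or 3.02 CPM (1.97 to 4.43), at ranks 501 and 437. The normoxia rank of miR-155-5p is loose, because 16 miRNAs had exactly 7 counts there. Against the median mature miRNA, with 14 counts in normoxia and 28 in hypoxia, miR-146b-5p and miR-146a-5p lay above and miR-155-5p below in both libraries. The order miR-146b-5p, miR-146a-5p, miR-155-5p held in both libraries, and within each library the intervals of neighbours in this order did not overlap. The 3 miRNAs together made up 0.0128% of mature counts in normoxia (0.0118% to 0.0139%) and 0.0114% in hypoxia (0.0107% to 0.0122%).

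**Figure D1:**
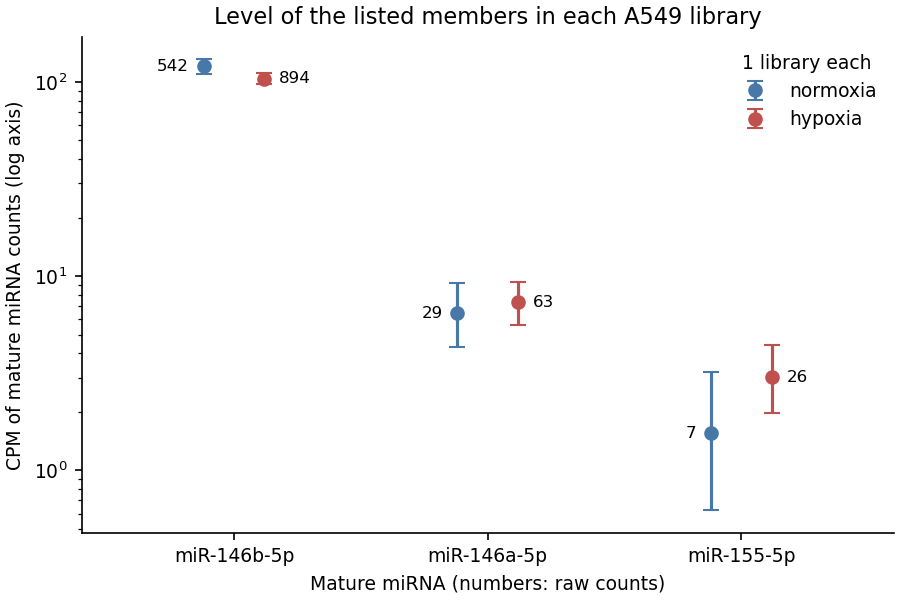
Levels of the 3 listed members in the normoxia (blue) and hypoxia (red) libraries, as CPM of mature miRNA counts on a log axis. Points are single libraries, bars are exact 95% counting intervals and numbers are raw counts; the order of the members is the same in both libraries, from 120 and 104 CPM for miR-146b-5p down to 1.55 and 3.02 CPM for miR-155-5p.

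Ratios of members within a library do not depend on scaling. miR-146b-5p had 18.7 times as many counts as miR-146a-5p in normoxia (interval 12.9 to 28.2) and 14.2 times as many in hypoxia (11.0 to 18.6). Of the counts on both miR-146 guides, miR-146b-5p therefore took 94.9% in normoxia (92.8% to 96.6%, of 571 counts) and 93.4% in hypoxia (91.7% to 94.9%, of 957 counts). Almost all counts on the pair were thus on the sequence of the chromosome 10 locus in both libraries, as far as the counts of the pair can be separated. Counts of different sequences also depend on how well each is ligated and amplified, which was not tested for these miRNAs. The folds and shares between members are therefore those of counts and not of molecules. miR-146a-5p had 4.14 times as many counts as miR-155-5p in normoxia (1.78 to 11.2) and 2.42 times as many in hypoxia (1.51 to 3.99).

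Between the libraries, miR-146b-5p was slightly lower in hypoxia, miR-146a-5p was nearly equal with a direction that depended on the scaling, and miR-155-5p was 1.95 times as high but with few counts. miR-146b-5p had a log2 ratio of hypoxia over normoxia of -0.21 (interval -0.36 to -0.051), or 0.866 times the normoxia level (0.777 to 0.965). At the normoxia share, 1032 counts would have fallen on it in the hypoxia library, against the 894 counted. The interval lies below 0, but it takes in neither the choice of scaling nor the variation from culture to culture.

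miR-146a-5p had a log2 ratio of 0.19 (-0.47 to 0.88), with 63 counts in hypoxia where 55.2 would have matched its normoxia share. Its libraries were not distinguishable at this depth, since with 29 counts in normoxia only 86 or more counts in hypoxia, or 32 or fewer, would have moved the interval to 1 side of 0. miR-155-5p had the largest log2 ratio of the 3 members, 0.96, with an interval from -0.28 to 2.41 that includes both a lower level and a level 5.32 times as high. With 7 counts in normoxia, 31 or more in hypoxia would have been needed for an interval above 0, and 26 were counted. A difference of this size was thus not detectable for miR-155-5p at this depth.

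The members' ratios were also set against each other over the 3 possible pairs, which is again free of scaling. The hypoxia over normoxia ratio of miR-146a-5p was 1.32 times that of miR-146b-5p (interval 0.824 to 2.15). The ratio of miR-155-5p was 2.25 times that of miR-146b-5p (0.943 to 6.18) and 1.70 times that of miR-146a-5p (0.625 to 5.19). All 3 intervals include 1, so no pair of members was distinguishable in its ratio, and the intervals leave room for differences of more than 2-fold in each.

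A miRNA was called higher or lower by its size of difference, where the log2 ratio reached 0.9 up or down and the mean log2 CPM exceeded 3, and 0 of the 3 listed members were called. Of the 339 miRNAs past this expression filter, 12 were called higher (3.54%) and 11 lower (3.24%) in hypoxia. This balance depended on the scaling, with 8 higher and 15 lower under TMM and 5 higher and 19 lower when the 10 most abundant miRNAs were left out of the totals. Only miR-146b-5p passed the filter, with a mean log2 CPM of 6.81, while miR-146a-5p (2.84) and miR-155-5p (1.31) fell below it. miR-155-5p reached the threshold of 0.9 but failed the filter, so it is not among the calls. The median log2 ratio of the 339 miRNAs was 0.079, with quartiles of -0.22 and 0.39. Relative to this median, miR-146b-5p lay at -0.29, miR-146a-5p at 0.11 and miR-155-5p at 0.88.

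**Figure D2:**
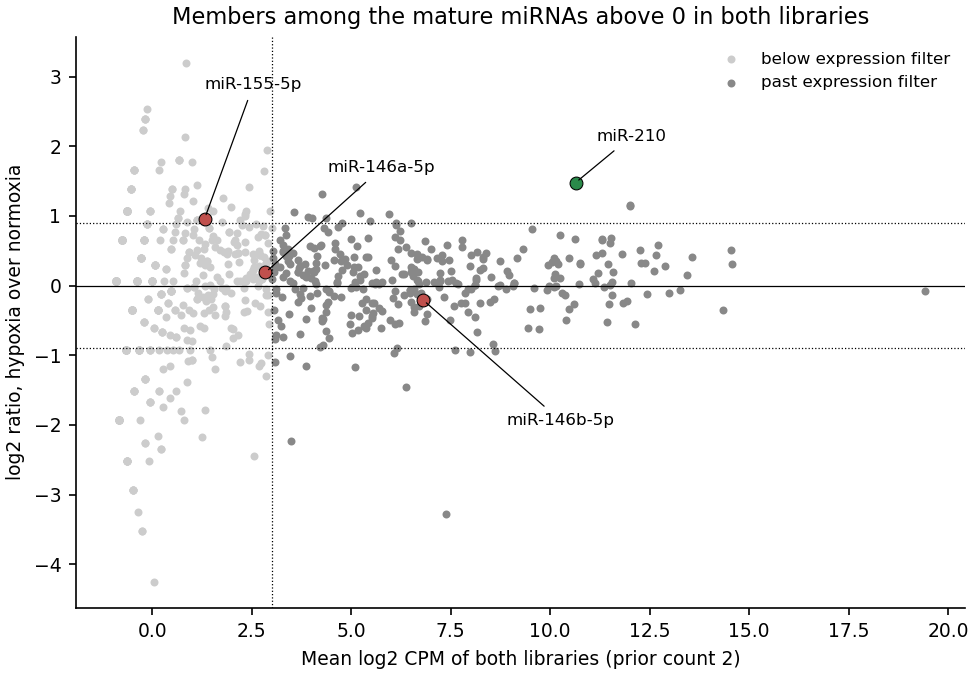
Log2 ratio of hypoxia over normoxia against mean log2 CPM for the 788 mature miRNAs with counts in both libraries, each point being 1 miRNA. Dotted lines mark the expression filter of 3 and the log2 thresholds of 0.9 and -0.9; of the members (red) only miR-146b-5p lies past the filter, within the thresholds, while miR-210 (green) lies above them at 1.48.

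miR-210, a well-known target of hypoxia-inducible factor, was taken as the marker of low oxygen. Its counts were 4307 (normoxia) and 22849 (hypoxia), which gave a log2 ratio of 1.48 (1.43 to 1.52). The interval of miR-146b-5p (-0.36 to -0.051) and that of miR-146a-5p (-0.47 to 0.88) lay wholly below that of miR-210, while the interval of miR-155-5p (up to 2.41) overlapped it.

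miRNAs linked to NF-κB or Toll-like receptor signalling, either as induced genes or as regulators, were listed as the surroundings of the pathway. Of the 15 names, 13 were listed and 11 passed the expression filter, of which 1 was called higher and 0 were called lower, beside 3.54% higher and 3.24% lower among all 339. Of these 11, 7 had log2 ratios above 0 and 4 below, with a median of 0.31, beside 202 above and 137 below and a median of 0.079 over all 339. The other scalings lowered both medians by the same amount, to between 0.12 and 0.24 for the list and between -0.12 and 0.0089 for all 339. Without the filter, the median of the list was 0.029 over 13 miRNAs. The called miRNA was miR-221-3p, which targets the cell cycle inhibitor p27, with 12455 counts in normoxia and 52333 in hypoxia and a log2 ratio of 1.14. miR-132-3p, a regulator of inflammatory and neuronal genes, had 300 and 1062 counts and a log2 ratio of 0.89 (0.71 to 1.08), just under the threshold. miR-212-3p, which shares a primary transcript with miR-132, had 113 and 341 counts and a log2 ratio of 0.66 (0.35 to 0.98).

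The other members of the list past the filter lay between -0.33 for let-7i-5p and 0.51 for miR-31-5p. miR-9-5p, which targets the NF-κB subunit gene NFKB1, had 232 and 451 counts and a log2 ratio of 0.029 (-0.20 to 0.26), which fell below 0 under each of the other scalings. miR-125b-5p, which targets TNF, lay at 0.31, and miR-21-5p, the most abundant of all, at -0.079. The list was led by miR-21-5p in both libraries, so its summed level of 754578 CPM in normoxia and 728030 CPM in hypoxia is nearly that of miR-21-5p alone. miR-301a-3p, with 32 and 59 counts, and miR-147b, with 2 and 3 counts, fell below the filter, and miR-187-3p and miR-223-3p were not listed.

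**Figure D3:**
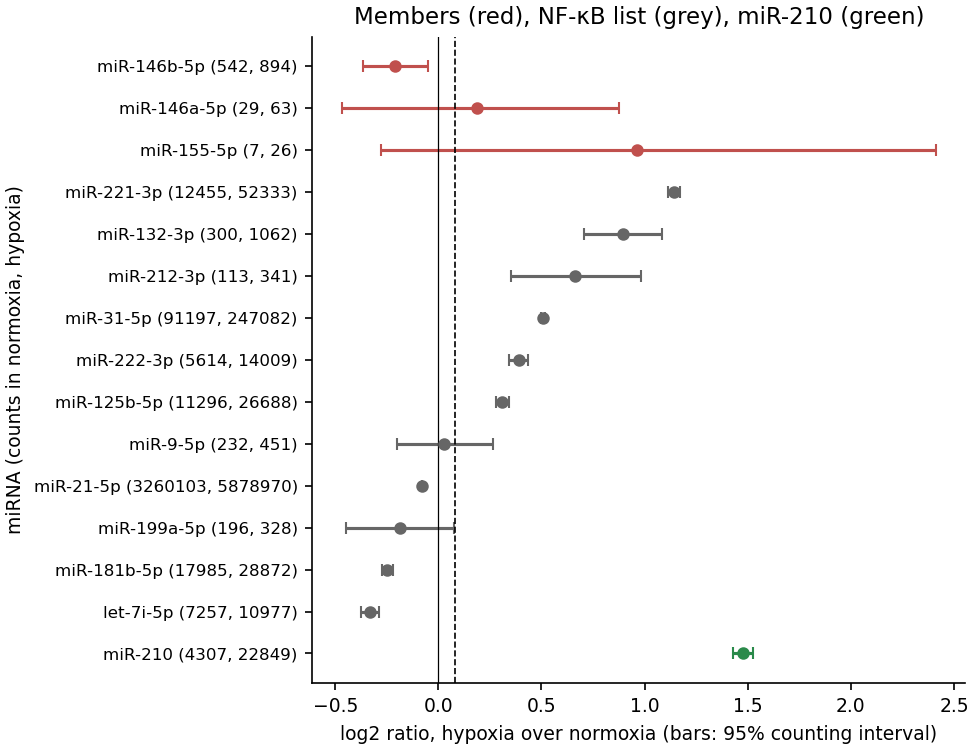
Log2 ratios of hypoxia over normoxia with 95% counting intervals (bars) for the 3 listed members (red), the 11 miRNAs of the NF-κB-linked list past the expression filter (grey) and miR-210 (green), with counts in normoxia and hypoxia in brackets. The dashed line is the median of all 339 miRNAs past the filter, 0.079; the interval of miR-155-5p, from -0.28 to 2.41, is the widest.

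Because miR-155 and miR-146a are abundant in leukocytes, miRNAs that mark other cells were counted too. Of 7 blood cell markers, 5 were listed, with a summed level of 43.6 CPM in normoxia and 49.5 CPM in hypoxia, led by miR-486-5p (107 and 225 counts) and miR-451a (82 and 191 counts), both of the red cell lineage. The defining leukocyte markers were near 0, with 5 and 6 counts for miR-142-3p, 2 and 2 for miR-142-5p and 1 and 2 for miR-150-5p, and miR-223-3p was not listed. miR-144-3p, which is transcribed together with miR-451a, was not listed either. miR-155-5p, with 7 and 26 counts, was in the same range of counts as miR-142-3p in normoxia and above it in hypoxia. The part of RNA from any source other than the A549 cells in these counts was not tested, and in bulk RNA fewer expressing cells and less RNA per cell cannot be told apart.

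Of the epithelial markers, checked because the line comes from a lung epithelial tumour, 6 of 6 were listed, with a summed level of 1168 CPM in normoxia and 1362 CPM in hypoxia, led by miR-200b-3p. The higher sum in hypoxia came from miR-200b-3p, at a log2 ratio of 0.30 (0.25 to 0.36), while miR-141-3p was lower, at -0.55 (-0.84 to -0.25). The 2 endothelial markers, led by miR-126-3p, summed to 222 CPM in normoxia and 221 CPM in hypoxia. Their near-equal sums hide unlike arms of 1 hairpin, with a log2 ratio of -0.44 (-0.71 to -0.16) for miR-126-5p and of 0.081 (-0.042 to 0.20) for miR-126-3p, whose sign depended on the scaling. The 4 mesenchymal markers summed to 239 and 236 CPM, led by miR-143-3p in normoxia and by miR-199a-3p in hypoxia. miR-146b-5p alone, at 120 and 104 CPM, thus lay below the sums for these marker groups and above that for the blood cell markers. None of the cell markers past the expression filter was called, beside 3.54% called higher and 3.24% lower among all 339 miRNAs. miR-205-5p, miR-142-3p, miR-142-5p and miR-150-5p fell below the filter and could not be called. Of these, miR-142-5p, with 2 counts in each library, had a log2 ratio of -0.93, past the threshold.

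The miRNAs closest in level to each member were found by the Euclidean distance between log2 CPM values over the 2 libraries, which says nothing of shared function. For miR-146b-5p these were miR-532-5p (507 and 899 counts, distance 0.096) and miR-345-5p (574 and 959 counts, distance 0.13). For miR-146a-5p they were miR-26a-2-3p (29 and 65 counts, distance 0.043) and miR-2116-3p (30 and 65 counts, distance 0.064). For miR-155-5p they were miR-3144-3p (7 and 25 counts, distance 0.051) and miR-4758-3p (7 and 29 counts, distance 0.14). The neighbours of miR-146a-5p thus include the passenger strand of a miR-26a hairpin.

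hsa-miR-146b-3p, the passenger arm of miR-146b, is not listed, nor are the 3p arms of miR-146a and miR-155, so that no share of arms could be computed for any of the 3 hairpins. The table holds no feature with fewer than 3 counts over the libraries combined, so absence from it does not mean 0 counts. The definition of this arm also varies between sources. In the list of mature sequences that accompanies the study, hsa-miR-146b-3p is given as uGCCCUGUggacucaguucugg, which begins 1 base earlier than the RefSeq entry and moves bases 2 to 8 from CCCUGUG to GCCCUGU.

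The scaling moved all members together. When the libraries were scaled by TMM in place of mature totals, every log2 ratio and the median of the 339 miRNAs fell by 0.11, and they fell by 0.20 when the 10 most abundant miRNAs of either library were left out of the totals. miR-146b-5p stayed below 0 under each of the 5 scalings, from -0.21 to -0.40, and miR-155-5p above 0, from 0.96 to 0.77. miR-146a-5p went from 0.19 to -0.0060, so its direction is not fixed by these data. Of these scalings, miR-155-5p reached 0.9 only with mature totals, and it lay at 0.89 with DESeq2 size factors and at 0.85 with TMM.

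**Figure D4:**
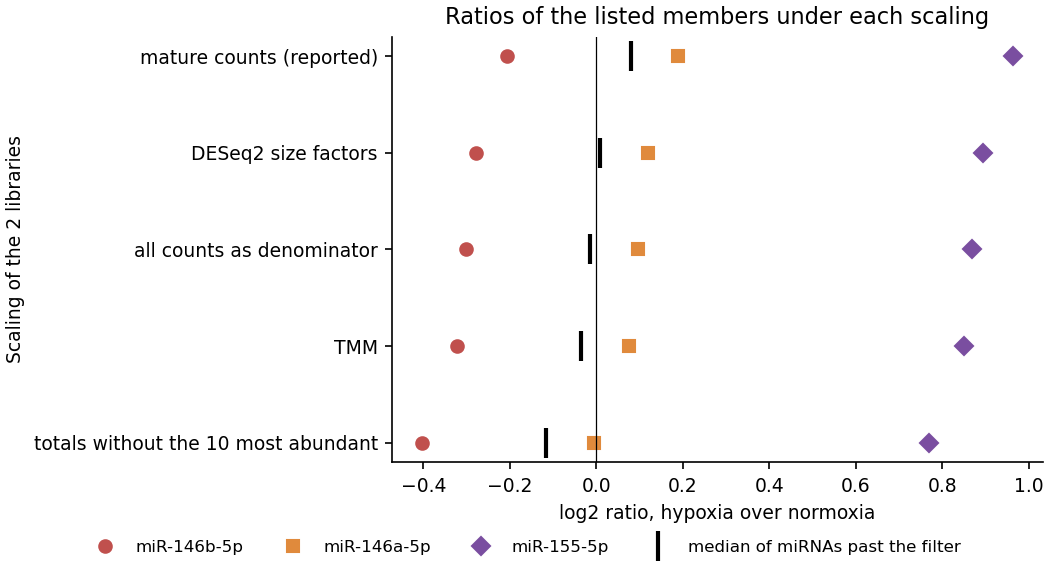
Log2 ratios of hypoxia over normoxia of miR-146b-5p (circles), miR-146a-5p (squares) and miR-155-5p (diamonds) under 5 ways of scaling the libraries, with the median of the miRNAs past the expression filter (black bars). The distances between members are the same in each line, and of the members only miR-146a-5p crosses 0, from 0.19 to -0.0060.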

How the data were processed

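Small RNAs of A549 cells in normoxia and hypoxia were sequenced on the SOLiD platform after adapter ligation and PCR, with 1 library per condition. The deposited values are raw counts of small RNA features with no normalization (6449337 in normoxia, 13115226 in hypoxia). For SOLiD small RNA data the methods name LifeScope and miRBase, but not for these libraries by name. The genome build, hg19, is from the submitters' processing notes. Groups were taken from the sample titles.

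Counts of the 859 mature miRNAs were divided by their total in each library (CPM). Log2 ratios were computed without a prior count; a miRNA at 0 in a library was set at 3 counts there and could be called only toward the library that had counts. Intervals at 95% are exact (Clopper-Pearson for shares, conditional binomial for ratios, conditional odds ratios between members), computed with scipy version 1.17.1 in Python version 3.11.15. The expression filter used edgeR's log2 CPM with a prior count of 2. Alternatives were TMM (edgeR version 4.0.16), size factors of DESeq2 version 1.42.0 in R version 4.3.3, other totals, prior counts, thinning, filter and threshold. The calculation was tested on simulated data. No test of the condition was made, as replicates are lacking. Named miRNAs are the members, their other arms, miRNAs of the same seed, the 2 nearest in level to each, miR-210 and the lists of NF-κB-linked and marker miRNAs. Members and lists were chosen with earlier results of these data known.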

Additional observations from a re-analysis of the deposited data

How the results depend on the processing

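No paired analysis was possible because normoxia and hypoxia were sequenced in 1 library each, and none could be left out. No value could be given for the ratio of miR-146b-3p or the 5p share of miR-146b, since the 3p arm is not listed. With totals that leave out the 11 miRNAs among the 10 most abundant of either library, miR-146b-5p moved from -0.21 to -0.40, past its counting interval, and miRNAs called higher and lower became 5 and 19 in place of 12 and 11. They were 8 and 15 with TMM or all counts and 10 and 15 with DESeq2 size factors, and the share of calls that were higher was 52.2% with mature totals, 34.8% with TMM and 20.8% without the most abundant. Without the expression filter 87 were higher and 117 lower of 859 considered, and with a threshold of 1 there were 8 higher and 7 lower. With all counts as the denominator the members took 0.00896% in normoxia and 0.00750% in hypoxia, by construction. The median of the NF-κB-linked list moved from 0.31 to 0.20 with TMM, 0.24 with DESeq2 size factors, 0.12 without the most abundant, 0.22 with all counts and 0.029 for 13 miRNAs without the filter; the cause of the scaling shifts was not tested. Over 8 settings, miR-146b-5p ranged from -0.40 to -0.21, miR-155-5p from 0.77 to 1.00 and miR-146a-5p from -0.0060 to 0.19, and thinning the hypoxia library left miR-146a-5p with 29 counts and miR-155-5p with 14. With 7 and 29 counts in normoxia, the depth gave wide intervals for miR-155-5p and miR-146a-5p.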

Other observations

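The values here were computed after the members' values were known. Of the 71 other miRNAs named as 5p arms with at least as many counts as miR-146b-5p, 60 (84.5%) have a 3p arm of the same name in the table and 11 do not. For miR-146a-5p these numbers were 116 of 143, and for miR-155-5p 137 of 172. The 5p arms of all 3 hairpins lack a listed partner. By construction, no miRNA in a comparison set has fewer counts than its member, and a 3p arm with few counts can be missing from the table. The shares are thus given as a description only and are not a comparison at equal level. Arms named in another way were not matched.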
